A study of Papio anubis and Macaca fascicularis and Castor canadensis with 48 samples.

Results

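The brain and the liver of the North American beaver (Castor canadensis) were compared in 4 of the 48 RNA-seq libraries of a survey of organs from 8 mammal species. The 4 libraries were chosen by their labels alone: 2 libraries of beaver brain and 2 of beaver liver, numbered 1 and 2 in each organ. The labels describe all animals of the survey as male, young adult and wild type, and no treatment is given. The region of the brain is not stated in the labels, nor is it stated whether the brain and the liver with the same number came from the same beaver or whether the 2 libraries of an organ came from separate animals. The p-values therefore measure the spread between these libraries, which may be technical. For comparison, the same organ contrast was examined in olive baboon (Papio anubis, 6 brains and 6 livers), in long-tailed macaque (Macaca fascicularis, 6 cerebella, 5 kidneys and 6 livers) and in white-footed mouse (Peromyscus leucopus, 1 brain and 1 liver). Beaver, baboon and macaque tissues came from 1 collection and the white-footed mouse from an earlier one.

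Brain and liver are organs with very different cellular makeup. The brain holds many kinds of neurons together with astrocytes, oligodendrocytes, microglia and blood vessels, and is known for the large variety of transcripts it contains. The liver consists mostly of hepatocytes, which make most of the proteins of blood plasma, bile acids and the enzymes that handle nutrients and foreign compounds, and a small number of very abundant messages for secreted proteins fills much of its RNA. These are bulk libraries, so fewer cells of a type and less RNA per cell cannot be told apart.

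The deposited counts are listed under mouse Ensembl gene IDs without gene names. None of the 16816 IDs could be matched to a name in the annotation used here, which is of baboon. Genes are therefore described by ID and by groups defined from their levels, the pathway and cell type lists could not be counted, and the labelled organs could not be checked against marker genes.

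The labels were checked by likeness to other libraries instead. Across genes, the Spearman correlation of counts was 0.9889 between the 2 beaver brains and 0.9771 between the 2 beaver livers. Beaver brain 1 had a median correlation of 0.913 with the 6 baboon brains, 0.8698 with the macaque cerebella and 0.8183 with the white-footed mouse brain, but 0.6704 with the beaver livers. Beaver liver 1 had a median correlation of 0.8757 with the 2 chipmunk livers, 0.8674 with the macaque livers and 0.8613 with the baboon livers, 0.788 with the baboon kidneys and 0.6183 with the baboon brains. Both beaver organs thus resembled the same organ of other species more than they resembled each other. Genes are not independent replicates, so these values are a description.

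Beaver liver RNA was concentrated in few genes, and beaver brain RNA was spread over many. The brain libraries held 15687136 and 15247495 counts and the liver libraries 21593334 and 22969388, where 2 counts stand for about 1 read pair. In brain 1 and brain 2, the most counted 1041 and 1074 genes were needed to reach 50% of all counts. In liver 1 and liver 2, 48 and 52 genes were enough. The single most counted gene took 0.627% and 0.821% of the counts in the brains and 26.6% and 24.7% in the livers. The 10 most counted genes held 4.18% and 4.43% of brain counts and 36.7% and 35.5% of liver counts. There was no overlap between the organs in any of these measures.

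**Figure D1:**
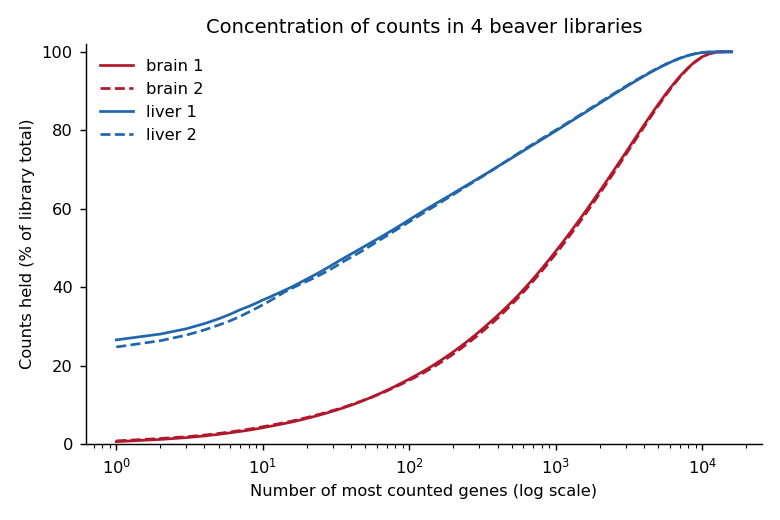
Share of each beaver library's counts (y axis, percent of the library total) held by its most counted genes, as the number of genes grows (x axis, log scale), with brain in red and liver in blue. The 2 libraries of an organ nearly coincide, and the 10 most counted genes hold 36.7% and 35.5% of counts in the livers but 4.18% and 4.43% in the brains.

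More genes were counted in brain than in liver. At least 1 count was listed for 14017 and 13951 genes in the brains and for 12957 and 12892 in the livers. When every library was scaled down to the read pairs of the shallowest one, the expected numbers were 14006.8 and 13950.7 in the brains and 12745.0 and 12637.1 in the livers. When the libraries were scaled to equal depth after TMM factors, which allow for the few genes that fill the liver libraries and give the brains the greater depth for the other genes, they were 13784.8 and 13723.2 in the brains and 12956.4 and 12872.1 in the livers. Of the 100 most counted genes, 89 were shared by the 2 brains and 87 by the 2 livers. Brain 1 shared 11 with liver 1, and brain 2 shared 10 with liver 2. By mean level, the 100 most counted genes of beaver brain shared 70 with those of baboon brain and 10 with those of beaver liver, and the 100 of beaver liver shared 65 with those of baboon liver.

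The gene that led both livers was nearly missing from the brains. It held 26.6% and 24.7% of liver counts but 0.00377% and 0.00657% of brain counts, a log2 difference of brain minus liver of -13.65 ± 0.57 (SE, n = 2 per organ; edgeR quasi-likelihood test, adjusted p = 0.00011). The gene that led the brains was present in both organs. It held 0.627% and 0.821% of brain counts and 0.256% and 0.244% of liver counts. On the scale used for the test, which corrects for the few genes that fill the liver libraries, its log2 difference was 0.16 ± 0.20 (SE, n = 2 per organ), which did not pass the test (edgeR quasi-likelihood test, adjusted p = 0.514).

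Most of the tested genes differed between the organs. Of 13309 genes tested with edgeR's quasi-likelihood test, 8576 (64.4%) passed at an adjusted p under 0.05. The level was higher in brain for 4681 genes (35.2%) and lower in brain for 3895 (29.3%). The genes higher in brain had a median log2 difference of 2.89, and those lower in brain had a median of -1.76. The fitted value of a gene at 0 in an organ is no measured fold, and with such genes at a lower bound, set against 3 read pairs over the 2 libraries of that organ, these medians were 2.69 and -1.76. Over all tested genes the median was 0.12 and the median size of the difference, without its sign, was 1.27. In each of the 8576 called genes the 2 brains did not overlap with the 2 livers, and neither did they in 2864 of the 4733 genes that were not called. Without beaver brain 1 the count of called genes was 5519, and without beaver brain 2 it was 5522, with the remaining brain assumed to vary as the livers do. Against a difference of at least 2-fold, a test chosen after the data were seen, 5500 genes passed.

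The spread between libraries of an organ was small beside the difference between organs. Levels are given below as CPM, the counts of a gene relative to the library total, scaled by TMM factors (TMM-scaled CPM), which adjust for differences in RNA composition. Among genes at 20 TMM-scaled CPM or more, 58 of 6347 (0.914%) differed over 2-fold between the brains, and 300 of 5967 (5.03%) did so between the livers. Between the means of the organs, 4639 of 8135 genes (57.0%) differed over 2-fold. The median size of the log2 difference was 0.148 between the brains, 0.210 between the livers and 1.24 between the organs.

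Called genes with large differences were more numerous toward brain than toward liver, and by how much depended on genes at 0 in an organ. Of the called genes, 580 higher in brain were at 0 in both livers and 70 lower in brain were at 0 in both brains. With these genes at their lower bound, 2158 genes were 8-fold or more higher in brain and 1100 lower, 1140 and 514 were so at 32-fold or more, and 347 and 238 at 256-fold or more. By fitted values the 8-fold counts were 2283 (17.2% of tested) and 1109 (8.33%), and at 256-fold or more they were 728 and 286. The direction also varied with level. When tested genes were divided by mean level into 4 classes of equal size, in the lowest class 1302 were higher and 477 lower in brain, whereas in the highest class 1050 were higher and 1528 lower. The mean was taken over both organs, so the classes are not independent of the direction. The filter used CPM without TMM factors, so it passed genes of brain at lower TMM-scaled levels than genes of liver. These counts by level are therefore a description.

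The counts themselves were divided unequally between these groups. The 4681 genes higher in brain held 55.7% and 55.0% of brain counts and 4.28% and 4.20% of liver counts. The 3895 genes lower in brain held 85.2% and 85.4% of liver counts and 18.4% and 18.9% of brain counts. The genes that were not called held 25.9% and 26.1% of brain counts and 10.5% and 10.3% of liver counts. These groups were chosen by the same comparison, so the shares are a description.

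**Figure D2:**
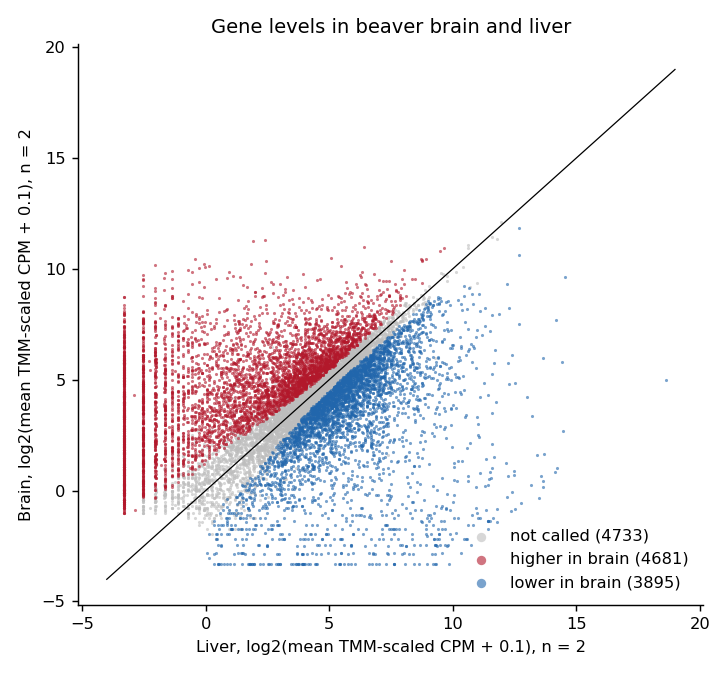
Mean level of each tested gene in beaver liver (x axis) and beaver brain (y axis), as log2 of TMM-scaled CPM plus 0.1, n = 2 libraries per organ, with the line of equal levels. The 4681 genes higher in brain are red, the 3895 lower in brain blue and the 4733 not called grey, and the column of red points at the left edge marks genes listed at 0 in both livers.

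The genes ranked first by the fitted value, 10 in each direction, were all listed at 0 in both libraries of the other organ, so their order is not an order of measured folds. The bounds ran from 1135-fold to 1995-fold for the 10 genes higher in brain and from 629-fold to 2923-fold for the 10 lower in brain. The highest of these liver bounds is 11.51 on the log2 scale, less than the size of the difference of the gene that led both livers, which was counted in both organs. Between the 2 libraries of the organ that held the gene, levels differed by 1.01 to 1.5 times in brain and by 1.03 to 4.58 times in liver.

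ENSMUSG00000026204 had 430.2 and 434.9 TMM-scaled CPM in the brains and 0 in both livers. Its level was at least 1995-fold higher in brain (edgeR quasi-likelihood test, adjusted p = 0.000103). In baboon, on the scale of the joint fit of both species, it lay between 317 and 565 TMM-scaled CPM in the 6 brains, with a median of 358, and between 0.244 and 0.387 in the 6 livers, with a median of 0.279. The gene was thus high in every brain and near 0 in every liver of both species.

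ENSMUSG00000027581 had 457.9 and 390.3 TMM-scaled CPM in the brains and 0 in both livers. Its level was at least 1956-fold higher in brain (edgeR quasi-likelihood test, adjusted p = 0.000119). The baboon brains, on the scale of the joint fit, lay between 253 and 352 TMM-scaled CPM with a median of 307, and the baboon livers between 4.75 and 9.72 with a median of 5.52. Baboon liver thus held a low level of a gene for which no read pair was listed in the beaver livers.

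ENSMUSG00000021999 was listed at 0 in both brains and had 873.7 and 952.8 TMM-scaled CPM in the livers. Its level was at least 2923-fold lower in brain (edgeR quasi-likelihood test, adjusted p = 1e-04). In baboon, on the scale of the joint fit, the livers lay between 878 and 2001 TMM-scaled CPM with a median of 1480, and the brains between 0 and 0.464 with a median of 0.116. In both species the groups did not overlap.

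ENSMUSG00000031640 was listed at 0 in both brains and had 624.4 and 643.2 TMM-scaled CPM in the livers. Its level was at least 2029-fold lower in brain (edgeR quasi-likelihood test, adjusted p = 9.74e-05). In baboon, on the scale of the joint fit, the livers lay between 297 and 713 TMM-scaled CPM with a median of 422, and the brains between 0.603 and 2.32 with a median of 1.11. Here too every liver was above every brain.

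Genes listed at 0 in one organ and well counted in the other were mainly genes of brain. A group of 178 genes had 0 counts in both livers and a mean of at least 20 TMM-scaled CPM in brain, with a median of 53.4 and a highest level of 433. A group of 27 genes had 0 counts in both brains and at least 20 TMM-scaled CPM in liver, with a median of 119 and a highest level of 913. The bounds on the fold ran from 93.2-fold to 1995-fold in the first group and from 67.6-fold to 2923-fold in the second. All 178 and all 27 were called, as the choice of such genes makes likely.

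In other species, few of the 178 genes were well counted in liver, and few of the 27 in brain. Of the 178 genes, none reached a mean of 20 CPM in the 6 baboon livers, the 2 sugar glider livers or the white-footed mouse liver. In the livers of macaque 1 gene did, in chipmunk 1, in bear 3 and in tube-nosed bat 5. At least 1 CPM was reached by 24 of the 178 in baboon liver and by 27 in macaque liver. Of the 27 genes of the second group, 5 reached 1 CPM in baboon brain, 3 in macaque cerebellum and 6 in white-footed mouse brain, and none reached 20 CPM in any of these groups. The number listed at 0 in every library of a liver group varied, and these groups differ in their number of libraries: 24 of the 178 were at 0 in all 6 baboon livers and 140 in the 1 white-footed mouse liver.

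The genes with fitted differences of 8-fold or more in beaver mostly had the same direction in libraries of other species. Of the 2283 genes higher in beaver brain, all were tested between baboon brain and baboon liver, where 1999 (87.6%) were higher in brain and 70 lower, with a median log2 difference of 4.69. Over all 14504 genes tested there, 42.5% were higher and 37.8% lower, with a median of 0.11. Of the 1109 genes lower in beaver brain, 960 (86.6%) were lower in baboon brain and 54 higher, with a median of -4.09. With baboon genes at 0 at their bound the medians were 4.51 and -4.02. The groups rest on fitted values, and some of their genes at 0 in an organ have a bound under 8-fold. With only genes whose bound or fitted value reached 8-fold, 1922 of 2158 were higher and 957 of 1100 lower in baboon brain. The baboon libraries did not enter the choice of the groups, but the baboon calls came from the joint fit of both species. Its filter, factors and dispersion used the beaver libraries too. Genes high in a beaver organ could thus be tested there whatever their baboon level.

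Macaque cerebellum, a part of the brain, gave similar counts. Of 2091 tested genes of the group higher in beaver brain, 1789 (85.6%) were higher in cerebellum than in liver and 126 lower. Of 1045 tested genes of the group lower in beaver brain, 939 (89.9%) were lower in cerebellum and 58 higher. Over all 13927 genes tested, 42.1% were higher and 39.8% lower. The medians of the 2 groups were 4.24 and -4.46 on the log2 scale, and 4.10 and -4.43 with macaque genes at 0 at their bound.

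Macaque kidney was set against the same macaque livers, so the 2 macaque comparisons share their controls and are given side by side. Of the group higher in beaver brain, 1091 of 2091 genes (52.2%) were higher in kidney than in liver and 292 (14%) lower, with a median log2 difference of 1.16. Of the group lower in beaver brain, 686 of 1045 (65.6%) were lower in kidney and 159 (15.2%) higher, with a median of -1.51. With macaque genes at 0 at their bound the medians were 0.94 and -1.51. Over all genes tested, 32.7% were higher in kidney and 30.4% lower. Both groups thus lay on the same side in kidney as in cerebellum, with smaller medians.

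The white-footed mouse had 1 library per organ and no test. Of 1712 genes of the group higher in beaver brain with a summed count of 20 or more, 1677 (98.0%) had the higher CPM in brain. Of 873 genes of the other group, 761 (87.2%) had the lower CPM in brain. Over all 11331 genes with such counts, 67.1% had the higher CPM in brain. These values carry no correction for composition.

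**Figure D3:**
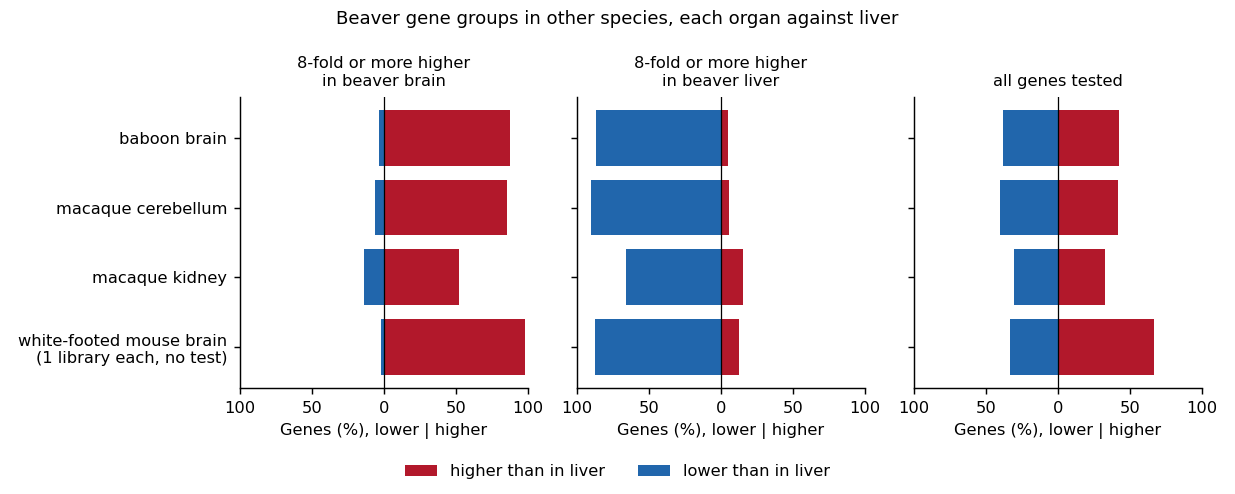
Percent of genes higher (red, to the right) or lower (blue, to the left) than in liver in baboon brain, macaque cerebellum, macaque kidney and white-footed mouse brain, for the genes fitted as 8-fold or more higher in beaver brain (left), those fitted as 8-fold or more higher in beaver liver (centre) and all genes tested (right). Bars count genes at an adjusted p under 0.05, except for the white-footed mouse, where they count the sign of 1 library against 1, and the red bar of the left panel is 87.6% in baboon brain and 52.2% in macaque kidney.

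Whether the difference between organs itself differed between beaver and baboon was tested by an interaction term over 16 libraries. Of 14504 genes, 5741 (39.6%) passed (edgeR quasi-likelihood test, adjusted p under 0.05), 3051 with a difference more toward brain in beaver and 2690 more toward liver in beaver. The sources used here do not say how beaver and baboon reads came to be counted under mouse gene IDs, and species and read assignment cannot be told apart where assignment acts on the organs unequally. Against a difference of at least 1 on the log2 scale (2-fold), chosen after the data were seen, 2482 genes passed.

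The called genes took several forms. Among the 5741 genes, 2527 were called between the organs in both species and in the same direction, with the larger difference in beaver for 1413 and in baboon for 1114. A further 839 were called in beaver alone, 1586 in baboon alone and 40 in neither. Beaver had fewer libraries per organ than baboon, so a difference of the same size passes more easily in baboon. The counts of 839 and 1586 are therefore no comparison of the species. Against the 2-fold difference, 743 were called in both species in the same direction, 633 in beaver alone and 794 in baboon alone, so the order of these forms depended on the test. The opposite direction in the 2 species was found for 749 genes. Over all genes tested, 7156 were called in both species in the same direction.

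Of the 749 genes, 364 were higher in brain in beaver and higher in liver in baboon, with median log2 differences of 1.47 in beaver and -1.12 in baboon. The other 385 were higher in liver in beaver and higher in brain in baboon, with medians of -1.31 and 0.92. With genes at 0 in an organ at their bound, the medians were 1.39 and -1.12 for the first group and -1.28 and 0.90 for the second. When a 2-fold difference was required of each contrast, the count was 151, with 66 and 85 in the 2 directions. When the calls of each species came from a fit of its own libraries, an alternative also chosen after the data were seen, it was 652, with 349 and 303 in the 2 directions.

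In macaque, which did not enter the fit, these genes mostly lay as in baboon, the other primate. Of 357 tested genes of the first group, 243 (68.1%) were lower in the cerebellum of macaque, relative to its liver, and 35 (9.80%) were higher. Of 368 tested genes of the second group, 221 (60.1%) were higher in cerebellum and 48 (13%) lower. Over all macaque genes tested, 39.8% were lower and 42.1% higher. In white-footed mouse, a rodent as the beaver is, 185 of 268 genes of the first group (69.0%) and 206 of 298 of the second (69.1%) had the higher CPM in brain. Both shares were near the 67.1% of all genes, so the mouse libraries gave no direction particular to either group.

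**Figure D4:**
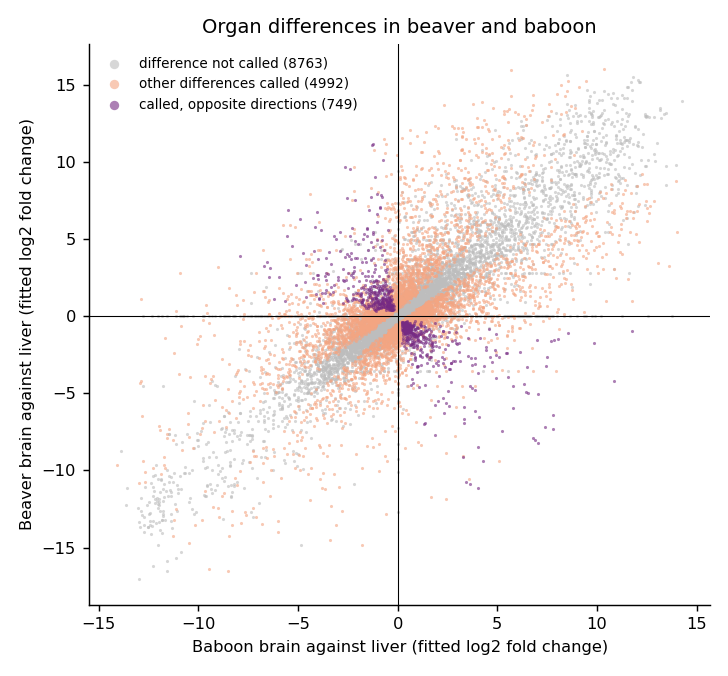
Fitted log2 difference of brain against liver in baboon (x axis) and in beaver (y axis) for the 14504 genes of the joint fit of 16 libraries. Genes whose organ difference was called between the species are coloured, the 749 with opposite directions in purple. These lie in the upper left and lower right quadrants.

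The genes ranked first by the fitted difference between the species are described from their levels on the scale of the joint fit. Some were listed at 0 in every library of an organ of a species, where the fitted value is no measured fold. Their order is thus not an order of measured differences. The p-values and SE given for a single species are of contrasts within the joint fit of 16 libraries. They thus draw on the spread of the libraries of both species, and n gives only the libraries compared. ENSMUSG00000003526 had 47.8 and 74.0 TMM-scaled CPM in the beaver brains and 0 and 0.131 in the beaver livers, where the second value is 1 read pair. The ratio of brain to liver was 908 (exact Poisson interval at 95% for counting error only, 163 to 35882). The baboon brains lay between 43.8 and 78.0 with a median of 51.5, and the baboon livers between 91.2 and 893.6 with a median of 250.6, a log2 difference of -2.66 ± 0.51 (SE, n = 6 per organ; edgeR quasi-likelihood test, adjusted p = 0.000173). Baboon livers 1, 2 and 3 lay at 94.2, 116.2 and 91.2 and livers 4, 5 and 6 at 481.7, 385.0 and 893.6, so none was near the median. The difference between the organs differed between the species (edgeR quasi-likelihood test of the interaction, adjusted p = 2.88e-05), and levels of a single organ were not tested between species. In CPM, macaque cerebellum had a mean of 41.3 and macaque liver of 271, and white-footed mouse had 124 in brain and 88.3 in liver.

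ENSMUSG00000074766 was a gene of low level in beaver. It had 1.20 and 1.81 TMM-scaled CPM in the beaver brains and 0 in both livers, at least 7.48-fold higher in brain. This beaver contrast of the joint fit did not pass (edgeR quasi-likelihood test, adjusted p = 0.0536). In baboon the brains lay between 1.81 and 4.99 with a median of 2.16, and the livers between 16 and 182.5 with a median of 24.5. Every baboon liver was above every baboon brain, and the organ difference differed between the species (edgeR quasi-likelihood test, adjusted p = 0.0024). Macaque had a mean of 3.01 CPM in cerebellum and 4.62 in liver, closer to each other than the baboon levels, and white-footed mouse had 1.58 CPM in brain and 0 in liver.

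ENSMUSG00000024650 was high in beaver liver and low in baboon liver. It had 1.61 and 0.679 TMM-scaled CPM in the beaver brains and 309.5 and 391.4 in the beaver livers, a log2 difference of -8.25 ± 1.28 (SE, n = 2 per organ; edgeR quasi-likelihood test, adjusted p = 3.57e-05). The baboon brains lay between 3.03 and 54.7 with a median of 16.8, and the baboon livers between 0 and 0.418 with a median of 0.123, a log2 difference of 7.02 ± 0.87 (SE, n = 6 per organ; edgeR quasi-likelihood test, adjusted p = 1.58e-06). Baboon brains 1, 2 and 3 lay at 14.7, 4.22 and 3.03 and brains 4, 5 and 6 at 54.7, 18.9 and 29.6. The difference between the species was -15.27 ± 1.70 on the log2 scale (edgeR quasi-likelihood test, adjusted p = 6.68e-06). Macaque cerebellum had a mean of 10.5 CPM and macaque liver of 0.0702, and the white-footed mouse had 1.90 CPM in brain and 0.624 in liver.

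ENSMUSG00000033854 had 3.44 and 5.55 TMM-scaled CPM in the beaver brains and 88.4 and 74.9 in the beaver livers, a log2 difference of -4.18 ± 0.43 (SE, n = 2 per organ; edgeR quasi-likelihood test, adjusted p = 7.84e-06). The baboon brains lay between 6.57 and 17.3 with a median of 11.2, and all 6 baboon livers were listed at 0, so that the level was at least 175-fold higher in baboon brain. For this gene, baboon brains 1, 2 and 3 overlapped with brains 4, 5 and 6. The organ difference differed between the species (edgeR quasi-likelihood test, adjusted p = 4.26e-07). Macaque followed the baboon pattern, with a mean of 37.1 CPM in cerebellum and 0.0423 in liver, and the white-footed mouse had 1.90 CPM in brain and 0 in liver.

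**Figure D5:**
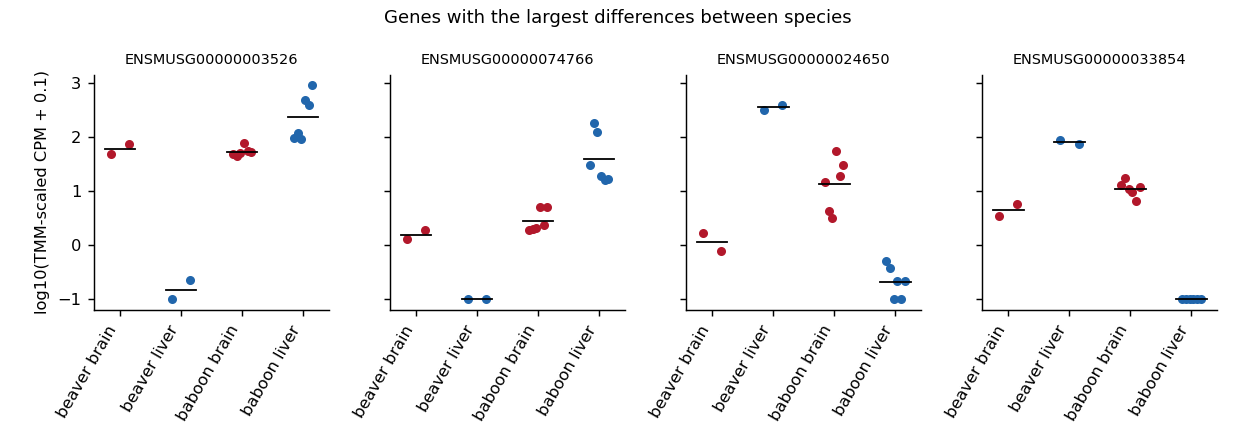
Level of 4 genes in each library as log10 of TMM-scaled CPM plus 0.1, for beaver brain and liver (n = 2 each) and baboon brain and liver (n = 6 each), with brain in red, liver in blue and a line at the mean of the log values. The first 2 genes are lowest in beaver liver, and the last 2 are highest there and lowest in baboon liver.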

How the data were processed

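RNA was extracted from organs frozen on dry ice, per the labels' protocols. The raw counts of all 48 libraries were deposited by the authors in a single table, with no normalization. STAR and featureCounts appear among the tools listed per the submitters' processing notes, with versions not given in the sources used here. Nor do these sources give the builds, the use of strand or how reads of 8 species were counted under mouse gene IDs. Low counts, from 1 to 20, were even in nearly all cases, so 2 counts were read as 1 read pair. All columns matched a sample, and 0 were left unmatched.

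The counts were tested with edgeR 4.0.16 in R 4.3.3 (TMM factors, filterByExpr defaults, two-sided quasi-likelihood F test, Benjamini-Hochberg adjustment, called at an adjusted p under 0.05). The beaver comparison used 4 libraries, the interaction 16 and the macaque comparisons 17. An SE is the size of the fitted log2 difference divided by the square root of the F statistic. It is thus derived from the test and is not a spread of levels between libraries. Alternatives were DESeq2 1.42.0, other factors, other filters, a block and libraries left out. The scripts were tested on simulated data.

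The 2 libraries of each organ limit the precision, and intervals and bounds cover counting error only. Genes were ranked by the fitted difference among called genes with at least 20 TMM-scaled CPM in an organ and, for the interaction, at least 1 in both species. Of these, 2 IDs per direction are printed. The comparison, rules and lists were chosen with earlier results of these data known. The groups of 8-fold genes, of genes at 0 in an organ and of interaction classes, and their lookup in other species, were chosen after these data were seen, as were the values with genes at 0 taken at a bound. The 51 gene lists and 21 isozyme families were not used, since no ID matched a name in the baboon annotation used here.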

Additional observations from a re-analysis of the deposited data

Results flagged for a closer look

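The organ difference of 5741 genes differed between beaver and baboon by the interaction test. Among them, 364 were higher in brain in beaver and in liver in baboon, and 385 the reverse. Whether read assignment to mouse gene IDs has a part in these differences was not tested.

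The 4 printed genes ranked first by the fitted difference had interaction adjusted p-values, from edgeR's quasi-likelihood test, of 2.88e-05 for ENSMUSG00000003526, 0.0024 for ENSMUSG00000074766, 6.68e-06 for ENSMUSG00000024650 and 4.26e-07 for ENSMUSG00000033854.

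In baboon, the levels of the 8 printed genes were searched for a library far from the other 5 of its organ. In 15 groups of 6 libraries 4 were found, where chance gives about 1 in 20 for independent groups. The 15 groups came from the same 12 baboon libraries, and the levels were not on a log scale. The 4 are therefore not set against that rate. ENSMUSG00000003526 had 78.0 TMM-scaled CPM in baboon brain 4, against 54.1 in the next. ENSMUSG00000026204 had 564.6 in baboon brain 5, against 389.7 in the next, and 0.387 in baboon liver 5, against 0.281 in the next. ENSMUSG00000027581 had 9.72 in baboon liver 6, against 6.05 in the next. None of these values reached the range of the other organ. Groups of 2 beaver libraries are too small for such a search.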

How the results depend on the processing

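The count of 8576 called genes in beaver lay between 7125 and 9331 under DESeq2, other factors, other filters, counts as read pairs and a fit of all 48 libraries. The number of genes tested varied too, and was 13309 in the main comparison. The 7125 were of 10231 tested with a filter at 10 CPM. The 9331 were of 15456 tested in the fit of all 48 libraries. Leaving out 1 library in turn gave 5519 to 8529 called genes, 3099 to 4670 of them higher and 2406 to 3859 lower in brain. The low values came from leaving out either brain. Testing against a 2-fold difference gave 5500, of which 2219 were lower in brain, as a stricter null hypothesis must give fewer. All genes shared with the calls of the main comparison had the same direction under every alternative run. Calls in fits of the same beaver libraries make this likely in advance, so it is a description.

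For the interaction, the count of 5741 lay between 5666 and 6557 under DESeq2, other factors, no filter and all 48 libraries, between 4435 and 4709 without 1 beaver library, and was 2482 against a 2-fold difference. Without beaver brain 1, the genes with the same direction and the smaller difference in beaver numbered 707 rather than 1114. The 8 printed genes kept their direction and passed, in the comparison for which each was chosen, under each alternative that gave a p-value.

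With the replicate number as a block (replicate block), 8121 genes were called in beaver and 5343 in the interaction. Deviations of same-numbered beaver brain and liver libraries from their organ means correlated across genes with r = 0.114, with 2 pairs only, and the labels state no shared animal. The alternatives planned for gene lists were not run, since no gene could be named from the annotation used here. Genes at 0 in an organ are limited by depth. Of genes at 0 in an organ and at 20 or more in the other, CPM with no factor gave 236 rather than 178 for the livers and 24 rather than 27 for the brains.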
